A study of Arabidopsis thaliana x Arabidopsis arenosa and Arabidopsis suecica with 6 samples.

Results

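The lipid transfer protein genes LTP1 (AT2G38540), LTP2 (AT2G38530), LTP3 (AT5G59320), LTP4 (AT5G59310), LTP5 (AT3G51600) and LTP6 (AT3G08770) were followed in the leaf messenger RNA of Arabidopsis allotetraploids. They were found by their gene codes in the tables of homoeolog expression, and all 6 codes were present, among 17885 genes listed. The genes were chosen by their RPKM values in these samples (totals, homoeologs and T shares, with A. suecica set beside AlloF8), so the differences between dosage classes and between A. suecica and AlloF8 are given here as descriptions. The comparisons of cross order rest on the same totals and are given in the same way. Counts of members called in these comparisons stand beside the share of all genes called, and nothing is read from them. The 6 samples were allotetraploids that combine genomes from A. thaliana, written T, and A. arenosa, written A. The F1 crosses TATT and TTTA had 3 T genomes and 1 A genome (class T3A1), the F1 crosses TAAA and AATA had 1 T genome and 3 A genomes (class T1A3), A. suecica is the natural allotetraploid with 2 genomes of each kind, and AlloF8 was a resynthesized allotetraploid in generation F8, with the same 2 and 2. The labels say that AlloF8 was crossed with a parental species to make each F1, and leave the seed parent unnamed. All samples were rosette leaves taken before bolting. The labels' protocol gives an age of weeks for the parental species and for allotetraploids but no age for each library. Each F1 cross had 3 replicate columns, and A. suecica and AlloF8 had 2 each, giving 16 libraries, of which 12 were F1. Whether replicates were separate plants is not stated, so the errors below measure the spread between libraries, which may be technical.

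Lipid transfer proteins are small, secreted, cysteine-rich proteins whose folded chain encloses a hydrophobic cavity that holds a fatty acid or another lipid. In leaves they are found mainly in the walls of the epidermis, where they have been connected with the wax and cutin of the cuticle and with the response to water deficit, cold and pathogens. LTP1 and LTP2 are the abundant epidermal forms, and loss of LTP2 disturbs the contact between cuticle and cell wall. LTP3 and LTP4 are known as genes induced by abscisic acid (ABA), the drought hormone. LTP5 is known from work on pollen tube growth, and LTP6 is a less studied member.

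The genes fell into pairs by position and sequence. In the A. thaliana reference TAIR 10.1, all 6 were protein-coding genes with 2 exons. LTP2 (chr2:16128176-16129399) and LTP1 (chr2:16130290-16131240) lay on the plus strand with 890 bases and no annotated gene between them. LTP4 (chr5:23924990-23925957, minus strand) and LTP3 (chr5:23928954-23929816, plus strand) lay head to head, 2996 bases apart, again with no annotated gene between them. LTP5 (chr3:19138338-19139423) and LTP6 (chr3:2664069-2664888) were on the minus strand of chromosome 3. Coding sequences were 82.4% identical between LTP1 and LTP2 and 84.5% identical between LTP3 and LTP4, and the other pairs of members ran from 51.1% to 67.8%. The starts of the coding sequences of LTP3 and LTP4, both within the first exon, are shown because these neighbours had the highest identity and the largest differences between A. suecica and AlloF8. Capitals mark the bases that differ, or that face a gap, in the alignment of the other gene (37 mismatches and 9 gap positions beside 254 identical positions). LTP3 is chr5:23929051-23929350 on the plus strand, and LTP4 is chr5:23925482-23925772 on the minus strand, both 5′ to 3′ from the start codon.
LTP3: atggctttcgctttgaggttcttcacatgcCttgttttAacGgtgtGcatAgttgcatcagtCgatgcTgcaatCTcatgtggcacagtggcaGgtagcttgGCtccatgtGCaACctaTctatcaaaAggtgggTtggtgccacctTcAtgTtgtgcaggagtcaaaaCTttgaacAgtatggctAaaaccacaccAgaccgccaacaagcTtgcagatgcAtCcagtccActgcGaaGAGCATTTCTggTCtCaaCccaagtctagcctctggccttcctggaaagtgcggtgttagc
LTP4: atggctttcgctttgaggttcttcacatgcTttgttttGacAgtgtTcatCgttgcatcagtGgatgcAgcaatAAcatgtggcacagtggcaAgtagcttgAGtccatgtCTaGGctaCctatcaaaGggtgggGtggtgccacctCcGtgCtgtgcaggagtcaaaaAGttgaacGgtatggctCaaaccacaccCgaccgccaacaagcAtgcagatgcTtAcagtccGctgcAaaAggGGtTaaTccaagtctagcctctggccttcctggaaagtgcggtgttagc
The longest run of bases shared by the messenger RNAs of LTP3 and LTP4 was 44, and that of LTP1 and LTP2 was 40. The reads were 60 to 83 bases long per the labels, and no window of 60 bases was shared between any members in this reference. How the authors assigned reads that match closely related genes is not given in the sources used here, and the A. arenosa copies were not compared, so values of LTP1 beside LTP2 and of LTP3 beside LTP4 could share reads and are uncertain to that extent.

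The promoters of LTP3 and LTP4, the 250 bases before the annotated gene start, are shown because these genes were high together in A. suecica. The longest runs shared by the 2 windows had 9 bases, and capitals mark every copy of the 2 such runs. LTP3 is chr5:23928704-23928953 on the plus strand, and LTP4 is chr5:23925958-23926207 on the minus strand, in TAIR 10.1.
LTP3 promoter: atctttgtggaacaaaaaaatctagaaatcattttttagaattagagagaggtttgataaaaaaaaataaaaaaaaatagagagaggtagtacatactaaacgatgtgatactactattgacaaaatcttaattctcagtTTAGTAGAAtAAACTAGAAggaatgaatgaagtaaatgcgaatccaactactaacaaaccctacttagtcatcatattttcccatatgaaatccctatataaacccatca
LTP4 promoter: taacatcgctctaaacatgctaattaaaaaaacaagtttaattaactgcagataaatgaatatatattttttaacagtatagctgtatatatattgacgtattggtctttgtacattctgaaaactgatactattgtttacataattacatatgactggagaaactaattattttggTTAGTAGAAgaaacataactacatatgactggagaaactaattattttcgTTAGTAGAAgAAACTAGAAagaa
On either strand, the letters ACGTG, the core of the ABA-responsive element, were present in 22.9% of 27443 promoter windows of this length. They were not in the windows of LTP3 and LTP4, and among the 6 members they occurred only in that of LTP2, where 1 match lay 74 bases before the gene start. The letters CCGAC, the core of the dehydration-responsive element, were in 11.97% of windows and, among the members, only in that of LTP2. The L1 box of epidermal genes, searched as TAAATGCA or TAAATGTA on either strand, was in 4.49% of windows and in none of the 6. These are matches of letters in the A. thaliana reference and not in the plants sequenced.

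LTP1, LTP2 and LTP5 had a value in all 16 libraries. LTP3 had a value in 9 libraries and was listed at 0 in the other 7. LTP4 had a value in 7 libraries, was listed at 0 in 3 and had no value in the 6 libraries of class T3A1. LTP6 had a single value, 4.12 RPKM in replicate 1 of A. suecica with a T share of 78.4%, and was listed at 0 in replicate 2 and had no value elsewhere. RPKM is a read count divided by transcript length and by the mapped reads of its library, here for each homoeolog, and a total is the sum of the T and the A homoeolog. No total in the tables lay between 0 and 2 RPKM, so a 0 can stand for any level under that. Read depth is not given by these values, and no counting interval was computed. In whole leaves, fewer cells of a type and less RNA per cell cannot be told apart. Markers of mesophyll, such as the Rubisco small subunit gene RBCS1A, summed to between 6015 and 19428 RPKM in every library. Of 7 flower markers at most 1 had a value in any library, and of 5 root markers at most 1.

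**Figure D1:**
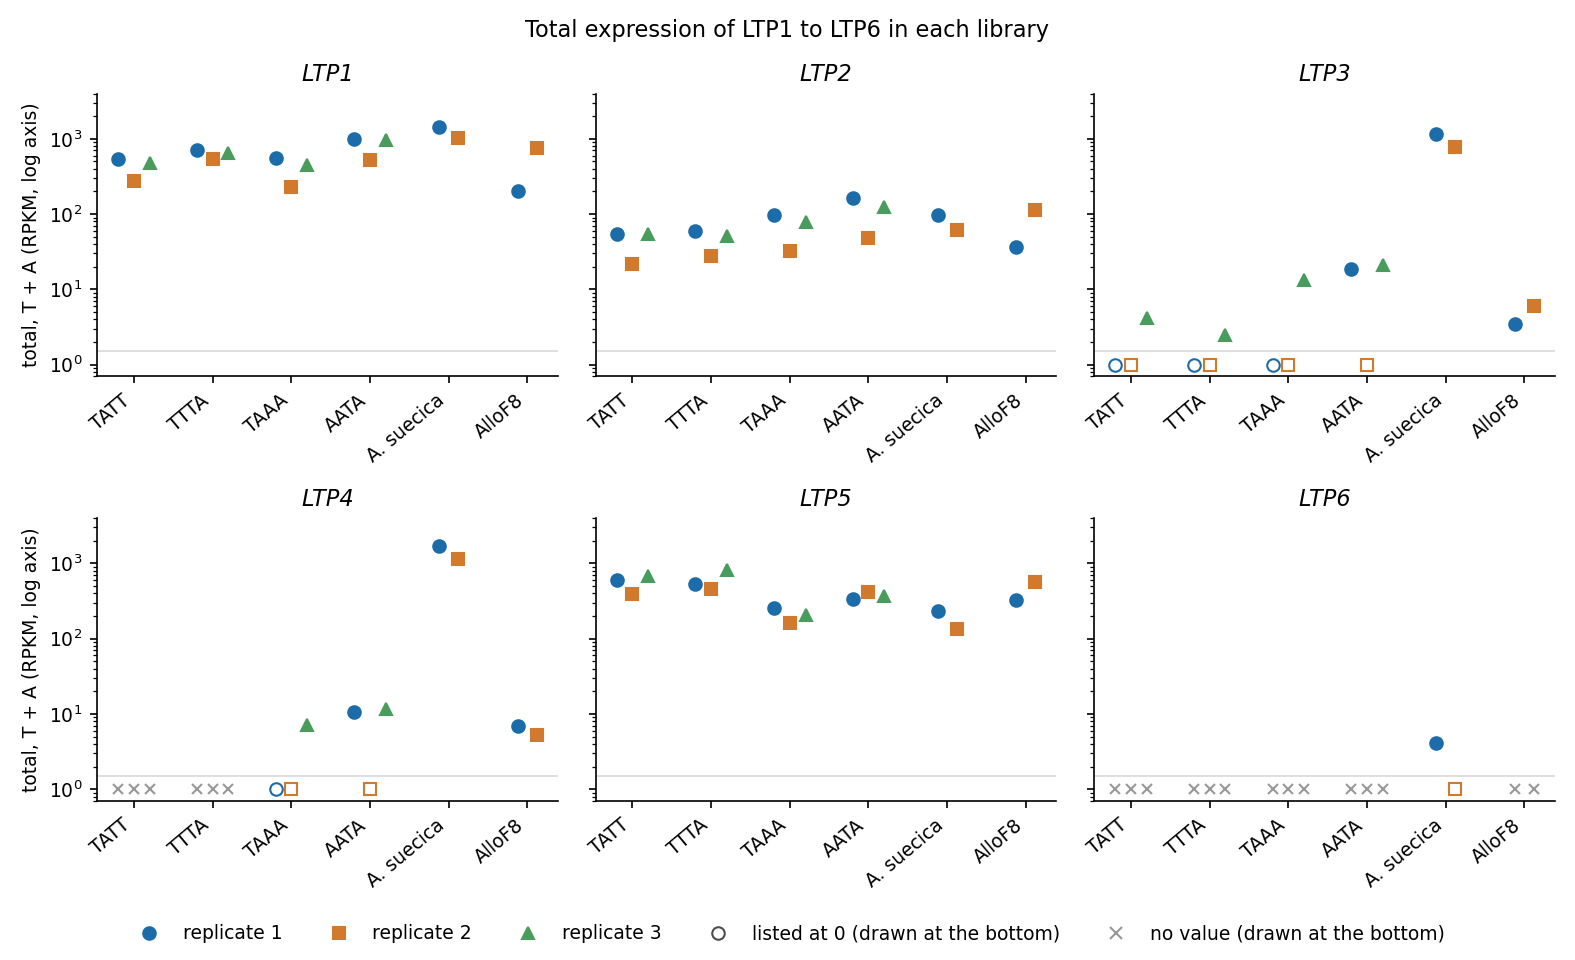
Total RPKM (T plus A, log axis) of each LTP gene in every library of the 6 samples, with replicates told apart by colour and shape. LTP3 and LTP4 lie between 790 and 1711 RPKM in A. suecica and at or under 20.8 RPKM in every other library.

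LTP3 and LTP4 were among the most abundant messages of A. suecica leaves, and in every other library they had 20.8 RPKM or less, were listed at 0 or had no value. LTP3 had totals of 1143 and 790 RPKM in A. suecica, against 3.49 and 5.98 RPKM in AlloF8. LTP4 had totals of 1711 and 1136 RPKM in A. suecica, against 6.90 and 5.31 RPKM in AlloF8. The libraries did not overlap for either gene. LTP3 averaged 967 ± 249 RPKM in A. suecica and 4.73 ± 1.76 RPKM in AlloF8 (SD, n = 2 each), a ratio of 204. LTP4 averaged 1424 ± 406 RPKM in A. suecica and 6.11 ± 1.12 RPKM in AlloF8 (SD, n = 2 each), a ratio of 233. By total RPKM, LTP4 ranked 42 of 15110 genes and 56 of 13839 genes in the 2 A. suecica libraries, and LTP3 ranked 67 and 71. On the log2(RPKM + 0.5) scale the difference, A. suecica minus AlloF8, was 7.55 (SE 0.62) for LTP3 and 7.73 (SE 0.64) for LTP4. Among 12644 genes tested these were the third and the second largest. The gene above them was AT3G15870, annotated as a fatty acid desaturase family protein, with a difference of 8.00, and the gene below them, AT2G25510, had 5.24. Over all genes tested, 4.14% were called at an adjusted p under 0.05 (limma, Benjamini-Hochberg), and 2 of the 5 members tested were, LTP3 and LTP4, a contrast from which the genes were chosen. In this fit limma took the error of nearly every gene from the trend over all genes, since its prior degrees of freedom were infinite, so an SE does not show the spread of a gene's own libraries.

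**Figure D2:**
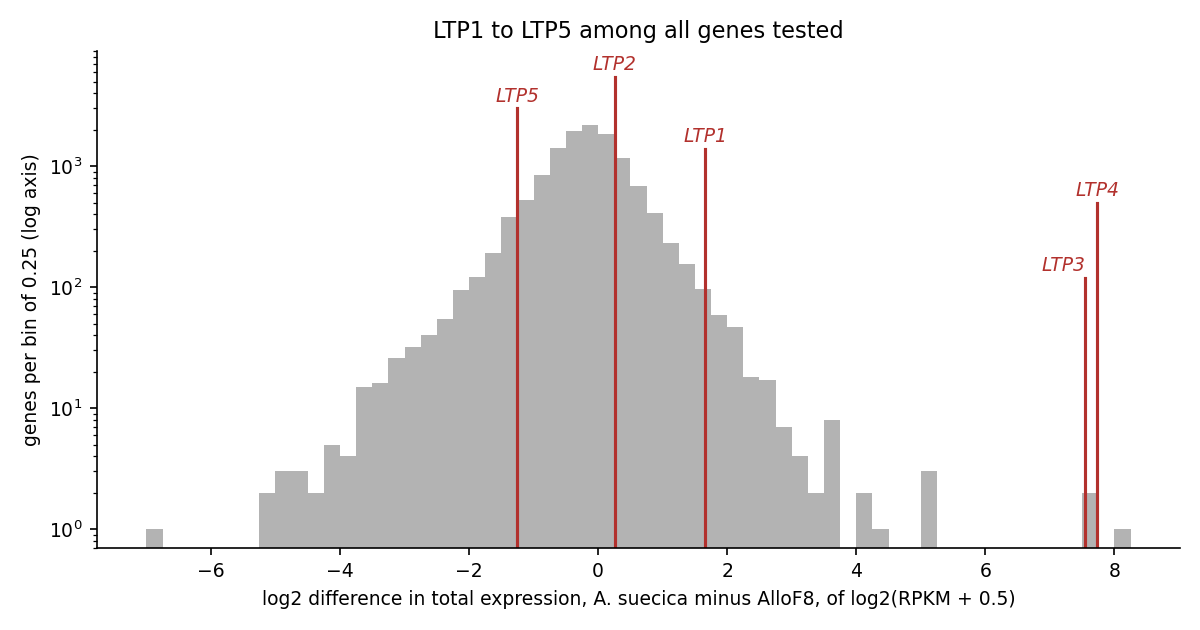
Histogram of the log2 difference in total expression, A. suecica minus AlloF8, over 12644 genes (count per bin, log axis), with red lines at LTP1 to LTP5. LTP3 (7.55) and LTP4 (7.73) stand beyond nearly all genes, while LTP2 (0.26) lies above 77.3% of genes (median of all genes -0.18).

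In the F1 crosses LTP3 and LTP4 stayed low. Where LTP3 had a value, those of T1A3 lay above those of T3A1. Libraries of both classes listed LTP3 at 0, so the classes overlapped once these were counted. LTP4 had values in T1A3 only. LTP3 had 4.16 RPKM in replicate 3 of TATT and 2.47 RPKM in replicate 3 of TTTA, against 13.5 RPKM in replicate 3 of TAAA and 18.9 and 20.8 RPKM in replicates 1 and 3 of AATA. All other F1 libraries listed LTP3 at 0. LTP4 had no value in TATT and TTTA, against 7.07 RPKM in replicate 3 of TAAA and 10.4 and 11.5 RPKM in replicates 1 and 3 of AATA, and the remaining T1A3 libraries listed it at 0. Both genes were listed at 0 in replicate 2 of both T1A3 crosses. Neither gene entered the fit of total expression, which needs 2 values in each cross. With no filter on low values, which left 1 or 2 libraries a cross, the log2 difference of LTP3, T3A1 minus T1A3, was -2.18 (SE 0.23), and with pairs listed at 0 taken as 0 it was -1.62 (SE 1.27). With missing rows also taken as 0, that of LTP4 was -2.16 (SE 0.95).

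The homoeologs of LTP3 and LTP4 in A. suecica had opposite majorities. LTP3 RNA came mostly from the T homoeolog, with T shares of 84.0% and 86.0% in A. suecica, against 81.5% and 76.8% in AlloF8. LTP4 RNA came mostly from the A homoeolog, with T shares of 15.2% and 10.11% in A. suecica, against 37.9% and 29.6% in AlloF8. Over all genes the median T share was 49.7% and 50.1% in the A. suecica libraries. The T homoeolog of LTP3 averaged 819.6 ± 198 RPKM in A. suecica and 3.72 ± 1.23 RPKM in AlloF8, a ratio of 220.4, and its A homoeolog averaged 147 ± 51.1 RPKM in A. suecica and 1.01 ± 0.52 RPKM in AlloF8, a ratio of 145 (SD, n = 2 each). The A homoeolog of LTP4 averaged 1236 ± 303 RPKM in A. suecica and 4.01 ± 0.38 RPKM in AlloF8, a ratio of 308, and its T homoeolog averaged 188 ± 103 RPKM in A. suecica and 2.09 ± 0.74 RPKM in AlloF8, a ratio of 89.6 (SD, n = 2 each). For every homoeolog of both genes, the lower A. suecica library was at least 43.9 times as high as the higher AlloF8 library. The AlloF8 values of these homoeologs ran from 0.64 to 4.59 RPKM, near the cut of 2 RPKM for totals. Depth is unknown, so the exact ratios and the AlloF8 T shares are uncertain. Reads shared between LTP3 and LTP4 could shift the T shares of both genes, in A. suecica too, which was not tested. The T share of LTP3 exceeded that of 98.2% and 98.5% of genes in the A. suecica libraries, and that of LTP4 exceeded the share of only 2.17% and 1.32% of genes. In AlloF8 the T share of LTP3 exceeded that of 96.7% and 95.4% of genes. In T1A3 it exceeded that of 75.8% of genes in replicate 3 of TAAA, and of 35.1% and 89.6% in replicates 1 and 3 of AATA.

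LTP1, the major epidermal form, had the highest total of the family in 9 of 16 libraries and was also higher in the A. suecica libraries than in those of AlloF8. Its totals were 1441 and 1041 RPKM in A. suecica, against 201 and 745 RPKM in AlloF8. The libraries did not overlap, but the 2 AlloF8 libraries lay further apart from each other than the nearer of them lay from A. suecica. The means were 1241 ± 282 RPKM in A. suecica and 473 ± 385 RPKM in AlloF8 (SD, n = 2 each). The log2 difference was 1.66 (SE 0.85, 95% interval -0.01 to 3.33), and it was 0.72 without replicate 1 of AlloF8 and 2.61 without replicate 2. All 5 mesophyll markers had values in these libraries, and they summed to 11540 and 9774 RPKM in replicates 1 and 2 of A. suecica, against 6060 and 19428 RPKM in replicates 1 and 2 of AlloF8. Their part in the result was not tested. T shares of LTP1 were 38.5% and 37.8% in A. suecica, against 40.6% and 51.7% in AlloF8.

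Across the F1 crosses the total of LTP1 did not separate by dosage, while its T homoeolog did and its A homoeolog overlapped in 1 pair of libraries. Totals in replicates 1, 2 and 3 were 536, 276 and 479 RPKM in TATT and 703, 540 and 653 RPKM in TTTA, against 563, 226 and 447 RPKM in TAAA and 999.5, 531 and 959 RPKM in AATA. The classes overlapped over most of their range, and the log2 difference, T3A1 minus T1A3, was -0.12 (SE 0.27, 95% interval -0.72 to 0.48). The T homoeolog ran from 199 to 548 RPKM in T3A1 (median 404), against 37.6 to 185 RPKM in T1A3 (median 81.6), without overlap. The A homoeolog ran from 77.7 to 215 RPKM in T3A1 (median 135), against 189 to 821 RPKM in T1A3 (median 465), and the classes overlapped only between replicate 3 of TTTA and replicate 2 of TAAA. The T share of LTP1 was 67.0% to 77.9% in T3A1, against 12.5% to 19.3% in T1A3. The log2 difference of the T to A ratio was 3.81 (SE 0.15), larger than that of 97.7% of genes and above the median of 2.88. Per genome copy the A homoeolog of LTP1 was above the T homoeolog in 4 of 6 libraries of T3A1, against 6 of 6 libraries of T1A3, where the A to T ratio per copy ran from 1.397 to 2.33.

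**Figure D3:**
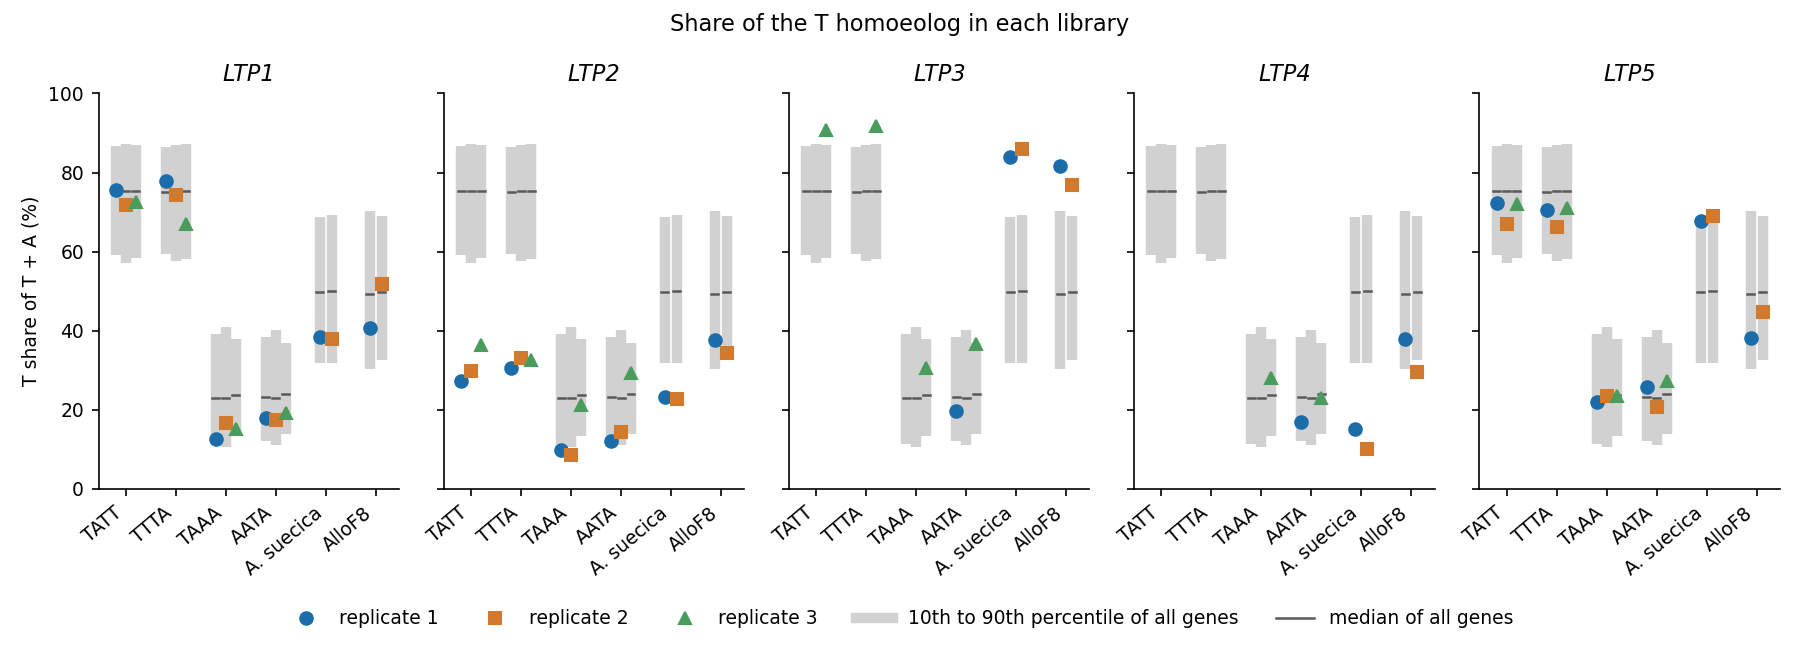
Share of the T homoeolog in T plus A (percent) for LTP1 to LTP5 in every library with a value, over grey bars that span the 10th to the 90th percentile of all genes and dark ticks at their median. LTP2 lies far below the bars in both T3A1 crosses (27.3% to 36.3%). In A. suecica (23.1% and 22.6%) and in replicates 1 and 2 of TAAA (9.93% and 8.65%) LTP2 lies below them too. LTP3 lies above them in A. suecica (84.0% and 86.0%) and in AlloF8 (81.5% and 76.8%). It also lies above them in the T3A1 libraries with a value (90.7% and 91.8%). In the T1A3 libraries with a value LTP3 lies within the bars (30.6% in TAAA, 19.7% and 36.5% in AATA). LTP4 lies below them in A. suecica (15.2% and 10.11%) and in replicate 2 of AlloF8 (29.6%).

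LTP2, the neighbour of LTP1, was expressed mainly from its A homoeolog in every library, including the crosses with a single A genome. Its T share was 27.3%, 29.8% and 36.3% in TATT and 30.7%, 33.0% and 32.6% in TTTA, against 9.93%, 8.65% and 21.2% in TAAA and 12.1%, 14.3% and 29.2% in AATA. The median T share of all genes in the T3A1 libraries was 75.02% to 75.4%. Between 0.99% and 1.99% of genes had a T share lower than that of LTP2 in those libraries. Per genome copy, the A homoeolog of LTP2 was 5.25 to 7.97 times the T homoeolog in T3A1, against 0.81 to 3.52 times in T1A3. In absolute terms the T homoeolog of LTP2 ran from 6.46 to 20.1 RPKM in T3A1 (median 15.8), against 2.76 to 36.1 RPKM in T1A3 (median 13.01), although T3A1 carried 3 T genomes and T1A3 carried 1. The log2 difference of the T homoeolog was 0.20 (SE 0.48), beside a median of 1.41 over all genes, and 1.33% of genes had a lower one. The log2 difference of the T to A ratio, 1.38 (SE 0.29), was above that of 0.84% of genes. Reads shared with LTP1 could shift the homoeolog values of LTP2, which was not tested.

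The total of LTP2 was 54.0, 21.6 and 55.2 RPKM in TATT and 59.7, 27.7 and 51.5 RPKM in TTTA, against 96.5, 32.0 and 77.4 RPKM in TAAA and 163, 47.5 and 124 RPKM in AATA. Replicate 2 was the lowest library of each cross, and the classes overlapped only between libraries of different replicate numbers. Within each replicate number, both T3A1 totals lay below both T1A3 totals. In the fit that leaves out replicate numbers, the log2 difference, T3A1 minus T1A3, was -0.89 (SE 0.40, 95% interval -1.77 to -0.0034). In A. suecica the totals were 96.2 and 62.4 RPKM, against 36.7 and 114 RPKM in AlloF8, so that both A. suecica values lay within the AlloF8 range. The log2 difference was 0.26 (SE 0.62), and it was -0.05 and 0.57 without replicates 1 and 2 of A. suecica and -0.55 and 1.07 without replicates 1 and 2 of AlloF8. T shares were 23.1% and 22.6% in A. suecica, against 37.7% and 34.4% in AlloF8.

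LTP5 was higher in the crosses with 3 T genomes and lower in A. suecica than in AlloF8. Its totals were 597, 389 and 683 RPKM in TATT and 524, 462 and 811 RPKM in TTTA, against 256, 161 and 204 RPKM in TAAA and 336, 412 and 369 RPKM in AATA. The classes overlapped only in that replicate 2 of TATT lay under replicate 2 of AATA. The log2 difference, T3A1 minus T1A3, was 1.03 (SE 0.20), larger than that of 97.9% of genes, and the ratio of the class means was 1.99. The epidermal markers, 3 to 5 of 5 with a value, summed to 62.1 to 131 RPKM in T3A1, against 46.7 to 118 RPKM in T1A3, and their part in the result was not tested. Both homoeologs were high per genome copy in T3A1. The A homoeolog gave 129 to 235 RPKM per copy in T3A1, against 41.2 to 109 RPKM per copy in T1A3, without overlap. The T homoeolog gave 86.8 to 192 RPKM per copy in T3A1, against 37.7 to 101 RPKM per copy in T1A3, with overlap. The A homoeolog as a whole, from 1 genome in T3A1 and 3 in T1A3, differed by -0.31 (SE 0.18) on the log2 scale, beside a median of -1.44 over all genes. The T share of LTP5 moved with dosage like that of the typical gene, at 66.2% to 72.2% in T3A1, against 20.7% to 27.3% in T1A3. Its ratio difference was 2.89 (SE 0.13), beside a median of 2.88.

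**Figure D4:**
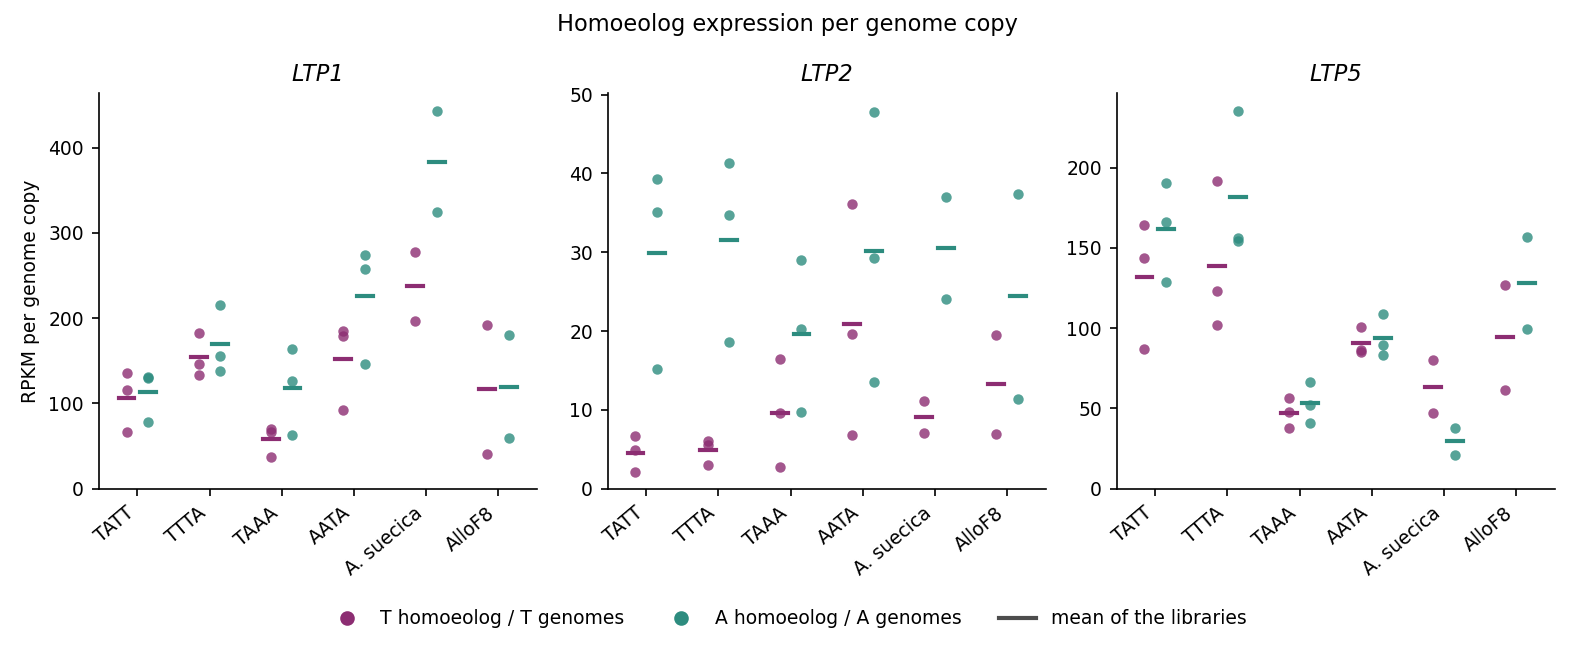
RPKM per genome copy (homoeolog RPKM divided by the number of genomes that carry it) of LTP1, LTP2 and LTP5, with a point per library and a bar at the mean of the libraries. In TATT and TTTA the A copy of LTP2 (15.2 to 41.4 RPKM) lies above the T copies (2.15 to 6.68 RPKM), and both homoeologs of LTP5 are higher there than in TAAA and AATA on average.

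In A. suecica LTP5 had 236 and 136 RPKM, against 323 and 567 RPKM in AlloF8, without overlap. The means were 186 ± 70.8 RPKM in A. suecica and 445 ± 173 RPKM in AlloF8 (SD, n = 2 each), and the log2 difference was -1.25 (SE 0.73, 95% interval -2.68 to 0.18). The A homoeolog averaged 59.1 ± 23.9 RPKM in A. suecica and 257 ± 80.9 RPKM in AlloF8, while the T homoeolog averaged 127 ± 46.8 RPKM in A. suecica and 188 ± 91.9 RPKM in AlloF8 (SD, n = 2 each). Libraries overlapped for the T homoeolog and not for the A homoeolog. The T share was 67.8% and 69.1% in A. suecica, against 38.2% and 44.7% in AlloF8, so that LTP5 had its majority from T in A. suecica and from A in AlloF8. Over all genes, 19.5% were called for a difference in the T to A ratio between A. suecica and AlloF8. Of the 5 members tested LTP2, LTP3, LTP4 and LTP5 were called, on a measure by which the genes were chosen. LTP3 lay close to the threshold (log2 difference 1.01, adjusted limma p 0.0481). Its A homoeolog had 0.64 and 1.38 RPKM in AlloF8, so the size of its difference depends on the constant added before taking logs. With a constant of 0.1 RPKM in its place, 3 members were called. No member was called when replicate 2 of A. suecica was left out and 2 when replicate 1 was.

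Taken as a sum, the 6 genes gave 4631 and 3167 RPKM in A. suecica, which was 0.639% and 0.517% of all RPKM in those libraries. The sums ran from 687 to 1518 RPKM in T3A1, from 419 to 1529 RPKM in T1A3, and were 571 and 1437 RPKM in AlloF8. Over all genes, 21.5% were called for total expression between T3A1 and T1A3, and of the 3 members tested LTP5 was. The genes were chosen by these values, so this count and those that follow describe them and do not test them. With the replicate number as a block 38.2% of genes were called, and LTP2 was called as well. For the T homoeolog 94.2% of genes were called, with LTP1 and LTP5 among them, and for the A homoeolog 94.9%, with LTP1 and LTP2 among them. For the T to A ratio 99.6% of genes were called, all 3 members included.

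The order of the parents in a cross was compared within each dosage class, a contrast that the choice of the genes does not name, although it rests on the same totals. The p-values of the members for cross order are therefore descriptions, here and in the fits with the block. Between TATT and TTTA no gene of 13535 was called (limma, Benjamini-Hochberg), 197 genes had an unadjusted p under 0.05, and the adjusted p of LTP1, LTP2 and LTP5 was 1.00. Their log2 differences were -0.60 (SE 0.38), -0.13 (SE 0.57) and -0.10 (SE 0.28), with TATT the lower in 3 of 3, 2 of 3 and 2 of 3 same-numbered pairs of libraries. Between TAAA and AATA 0.0813% of genes were called and none of the 3 members. LTP1 averaged 412 ± 171 RPKM in TAAA and 830 ± 260 RPKM in AATA (SD, n = 3 each), and its log2 difference was -1.05 (SE 0.38) with an adjusted p of 0.220 from limma. LTP2 averaged 68.6 ± 33.2 RPKM in TAAA and 112 ± 58.9 RPKM in AATA, a log2 difference of -0.66 (SE 0.57) and an adjusted limma p of 0.557. LTP5 averaged 207 ± 47.7 RPKM in TAAA and 372 ± 37.6 RPKM in AATA, a log2 difference of -0.86 (SE 0.28) and an adjusted limma p of 0.185. All 3 genes were lower in TAAA in 3 of 3 same-numbered pairs.

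The replicate number changed the call for TAAA against AATA. With the number as a block, limma gave an adjusted p of 0.0195 for LTP1, 0.0353 for LTP2 and 0.0505 for LTP5, while 7.45% of all genes were called. Over 22 alternatives the adjusted p ran from 0.00627 to 0.589 for LTP1, from 0.0243 to 0.934 for LTP2 and from 0.0505 to 0.490 for LTP5. It was under 0.05 for LTP1 and LTP2 only with the block and without replicate 2, the latter a setting added after the values were seen. Between TATT and TTTA it stayed at or above 0.537 for the 3 genes. A difference in the effect of cross order between the dosage classes was fitted as an interaction, again as a description. Its adjusted p was 0.929 for LTP1, 0.934 for LTP2 and 0.834 for LTP5 (limma, 0 of 13535 genes called, and 0.444, 0.314 and 0.334 with the block).

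Replicate 2 was the low library of most F1 crosses. LTP1 and LTP2 were lowest in replicate 2 in 4 of 4 crosses, and LTP5 was lowest in 3 of 4 and highest in AATA. The highest library of a cross exceeded the lowest by 1.303 to 2.49 times for LTP1, 2.15 to 3.44 times for LTP2 and 1.22 to 1.76 times for LTP5. The mesophyll markers moved the same way, with sums of 6015 to 10936 RPKM in replicate 2 and 11759 to 19220 RPKM in replicates 1 and 3 of the F1 crosses. The genes of ABA and drought response summed to 980 to 1211 RPKM in replicate 2 and to 2165 to 4073 RPKM in replicates 1 and 3. Epidermal markers were also lowest in replicate 2 in 4 of 4 crosses, at 46.7 to 94.6 RPKM, beside 61.7 to 131 RPKM in replicates 1 and 3. Their part in the values of the LTP genes was not tested.

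Likeness of pattern was measured as Pearson's r of log2 totals over the 16 libraries. It was taken among 10622 genes with a value in all of them and a mean of at least 5 RPKM. The libraries share samples and replicate numbers, so r is a description. The genes most like LTP1 were CAD9, a cinnamyl alcohol dehydrogenase (r = 0.955), AT1G18360, an alpha/beta-hydrolase (r = 0.944), and APE2, annotated as a phosphate translocator-like protein (r = 0.934). Those most like LTP2 were AT1G73325, a Kunitz-type protease inhibitor (r = 0.932), the transporter gene ABCB26 (r = 0.930) and LOX2, the lipoxygenase of jasmonate synthesis (r = 0.928). Those most like LTP5 were AT4G00810, of the 60S acidic ribosomal protein family (r = 0.932), C/VIF2, an invertase inhibitor (r = 0.929), and AT1G66940, a kinase-like gene (r = 0.921). Among the members, LTP1 and LTP2 had r = 0.728, LTP1 and LTP5 had r = 0.020, and LTP2 and LTP5 had r = -0.064. LTP3, LTP4 and LTP6 lacked values in some libraries and have no such neighbours here.

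Genes of ABA and drought response were compared because LTP3 and LTP4 are known to respond to ABA. Of 12 genes tested, 4 were higher and 2 lower in A. suecica than in AlloF8 (limma, adjusted p under 0.05), with a median log2 difference of 0.51 beside -0.18 over all genes, of which 4.14% were called. RD22, a dehydration-responsive gene, had 1860 and 2478 RPKM in A. suecica, against 169.8 and 181 RPKM in AlloF8, a difference of 3.61 (SE 0.84, adjusted limma p 0.00113). COR15A, which encodes a chloroplast protein of cold acclimation, had 159 and 289 RPKM in A. suecica, against 2.94 and 91.8 RPKM in AlloF8, a difference of 3.59 (SE 0.62, adjusted limma p 1.68e-06). Without replicate 1 of AlloF8 the difference of COR15A was 1.22 (SE 0.78, adjusted limma p 0.888). RD29B rose by 2.17 (SE 0.59, adjusted limma p 0.0103) and the dehydrin gene RAB18 by 2.04 (SE 0.60, adjusted limma p 0.0225). The dehydrin genes ERD10 and COR47 went the other way. ERD10 had 22.9 and 25.6 RPKM in A. suecica, against 271 and 339.9 RPKM in AlloF8, a difference of -3.62 (SE 0.63, adjusted limma p 2.82e-06). COR47 had 87.3 and 103 RPKM in A. suecica, against 647 and 674 RPKM in AlloF8, a difference of -2.79 (SE 0.72, adjusted limma p 0.00531). With 1 library left out at a time, ERD10 was called in 4 of 4 fits and COR15A in 3. RD22 was called without either AlloF8 library and not without either A. suecica library (adjusted limma p 0.137 and 0.0900), and so was COR47 (0.228 and 0.424). RD29B and RAB18 were called in none of these fits (adjusted limma p 0.141 to 0.401 and 0.154 to 0.376). The summed RPKM of the 13 genes was 3001 to 3837 in A. suecica and 1735 to 2898 in AlloF8. Between T3A1 and T1A3, RD29B of 12 genes tested was called, lower in T3A1 by a log2 difference of -2.50 (SE 0.45, adjusted limma p 0.00663), beside 21.5% of all genes. With the replicate block 5 of the 12 were higher and 2 lower, beside 38.2% of all genes called. RD29B had a value in 4 libraries of T3A1 and could not be fitted when any 1 of these was left out.

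**Figure D5:**
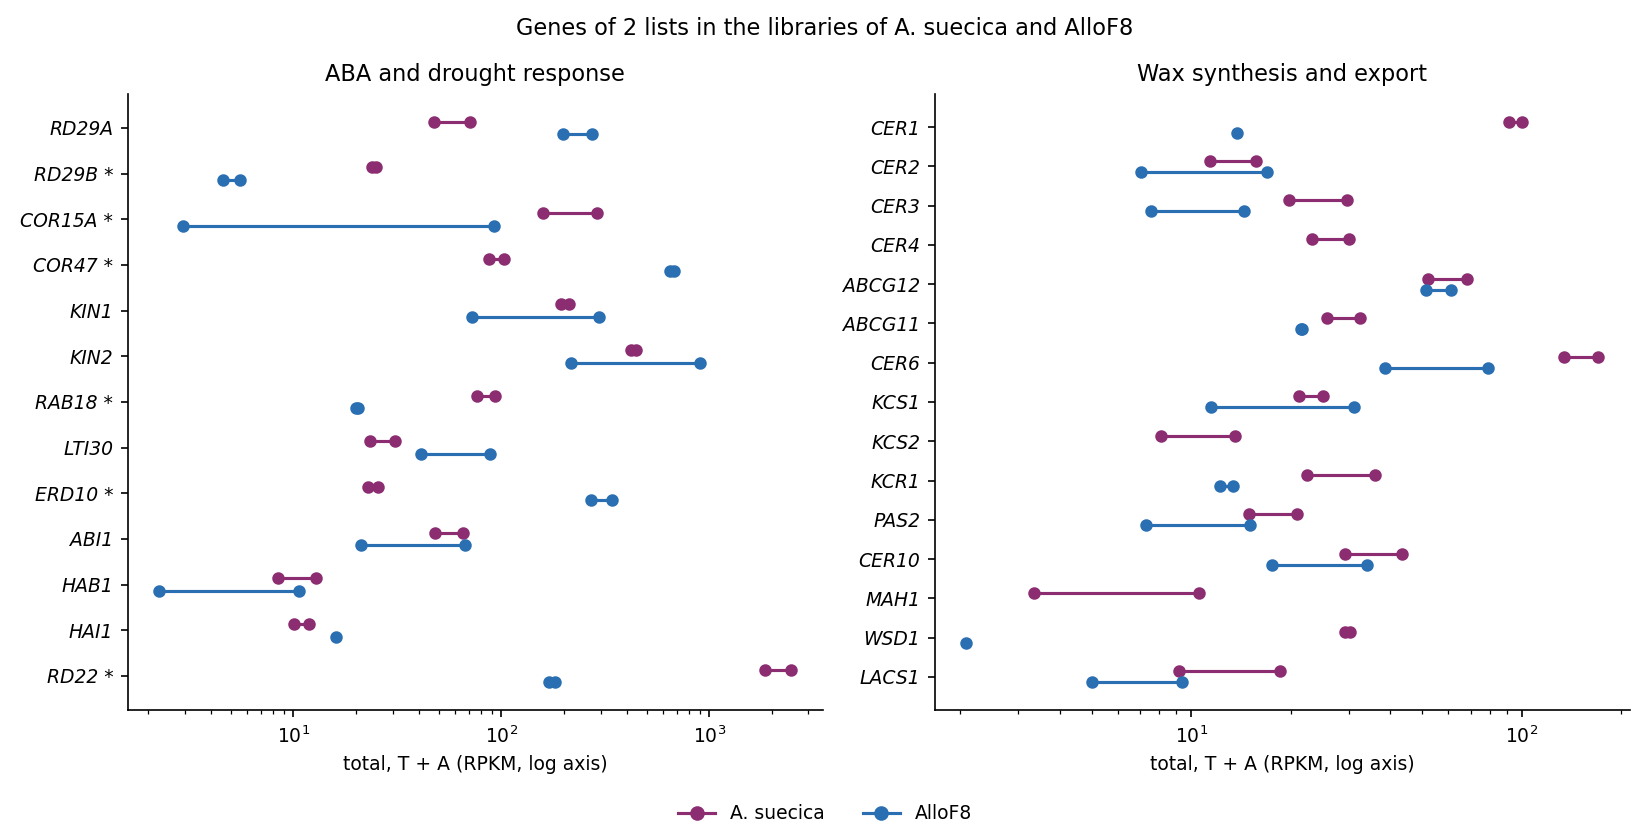
Total RPKM (log axis) of the genes of 2 lists in the libraries of A. suecica and AlloF8, a point per library with a value and a line between the 2 libraries of a sample. Asterisks mark genes called by limma, which are 4 higher (RD22, COR15A, RD29B, RAB18) and 2 lower (ERD10, COR47) in A. suecica in the first list and none in the second.

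Wax synthesis and export was the other process set beside the family, since lipid transfer proteins are found at the cuticle. None of 10 genes tested was called between A. suecica and AlloF8, beside 4.14% of all genes. The median log2 difference of the 10 was 0.63 beside -0.18 over all genes, and the range was 0.09 to 1.45. Several wax genes could not be tested because AlloF8 lacked values. CER1, needed for alkane formation, had 91.5 and 100.1 RPKM in A. suecica, against 13.8 RPKM in the AlloF8 library with a value. The wax ester synthase gene WSD1 had 29.3 and 30.3 RPKM in A. suecica, against 2.09 RPKM in the AlloF8 library with a value. CER4, which makes primary alcohols, had 23.3 and 30.0 RPKM in A. suecica, and no value in AlloF8. The 15 wax genes summed to 496 to 645 RPKM in A. suecica and to 231 to 260 RPKM in AlloF8, with 15 values in each A. suecica library and 10 to 12 in each AlloF8 library. Between T3A1 and T1A3, 1 of 11 tested was called, beside 21.5% of all genes. This was CER10, the enoyl-CoA reductase of fatty acid elongation, with a difference of 0.72 (SE 0.20, adjusted limma p 0.0263). With the block 2 were higher and 1 lower, beside 38.2% of all genes called. Leaving out 1 library at a time, the call of CER10 was lost without replicate 1 or 3 of TATT, replicate 1 of TTTA or replicate 2 of TAAA (highest adjusted limma p 0.0640).

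The remaining lists were those of other lipid transfer proteins, cutin, cuticle regulators and cell type markers, read beside the same shares of all genes called. These shares were 21.5% between T3A1 and T1A3, 38.2% there with the block, and 4.14% between A. suecica and AlloF8. Of 6 other LTP genes only LTP7 had values, and it was higher in T3A1, at 14.2 to 30.1 RPKM (median 23.3), against 4.67 to 17.0 RPKM in T1A3 (median 12.3), a log2 difference of 1.02 (SE 0.25, adjusted limma p 0.0190). In A. suecica LTP7 had 24.7 and 34.0 RPKM, against 10.12 and 13.9 RPKM in AlloF8, which was not called (adjusted limma p 0.302). None of 4 genes for lipid transfer proteins with a membrane anchor (LTPG genes) was called between T3A1 and T1A3, and with the block LTPG1 and LTPG2 were higher and LTPG5 was lower. Of the cutin genes none of 6 was called between T3A1 and T1A3 (2 higher with the block) and none of 5 between A. suecica and AlloF8. Of the cuticle regulators none of 3 was called between T3A1 and T1A3 (1 higher with the block), and 1 of 2 was lower in A. suecica than in AlloF8. This was MYB30, a regulator of very-long-chain fatty acid synthesis, with 2.04 and 2.94 RPKM in A. suecica, against 7.34 and 9.45 RPKM in AlloF8 (log2 difference -1.58, SE 0.49, adjusted limma p 0.0337), and the call was lost without any 1 of the 4 libraries (adjusted limma p 0.162 to 0.588). Of 3 epidermal markers tested, PDF2 was higher in T3A1 than in T1A3 by 0.46 (SE 0.14, adjusted limma p 0.0399). It was called in 3 of 12 fits with 1 library left out, those without replicate 2 of TATT, replicate 3 of TTTA or replicate 1 of TAAA, and missed the threshold in the other 9 (highest adjusted limma p 0.0945). With the block ATML1 was called as well, at 0.69 (SE 0.16, adjusted limma p 0.0099). None was called between A. suecica and AlloF8, where the 5 of the list summed to 69.5 to 93.3 RPKM in A. suecica and to 73.5 to 107 RPKM in AlloF8. No mesophyll marker of 5 was called in either comparison (1 higher and 1 lower between T3A1 and T1A3 with the block), and no flower marker could be tested. Of the root markers only ABCB4, an auxin transporter gene, could be tested, with 5.15 to 13.4 RPKM in T3A1 (median 6.37), against 5.76 to 20.3 RPKM in T1A3 (median 13.6). It was not called (log2 difference -0.68, SE 0.26, adjusted limma p 0.0800), and with the block it was lower in T3A1 (SE 0.20, adjusted limma p 0.0254).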

How the data were processed

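Messenger RNA of rosette leaves was read on an Illumina Genome Analyzer from poly(A) libraries, per the labels' protocols. The authors deposited, for each sample, RPKM values of the T and the A homoeolog of every transcript in each replicate. The genome build was TAIR 9 per the submitters' processing notes; no aligner and no rule for assigning reads to a homoeolog is given in the sources used here. The files hold no counts, so depth is unknown; RPKM summed to 613044 to 781415 per library.

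Where a gene had several transcripts, that with the highest mean stood for it; each member had 1. Pairs listed at 0 were treated as missing. Totals, homoeologs and ratios were tested as log2(RPKM + 0.5) by limma (version 3.58.1, R 4.3.3; eBayes, trend, two-sided, Benjamini-Hochberg over all genes, threshold 0.05), where the mean reached 1 RPKM and each cross had at least 2 values. The 12 F1 libraries were fitted together, with a mean per cross, and the libraries of A. suecica and AlloF8 separately. The script was tested on simulated data. Same-numbered F1 libraries deviated together from their cross means in all 18 pairs (r from 0.147 to 0.690, beside -0.639 to 0.526 in 36 different-numbered pairs). The numbers were taken from the file headers. The errors, intervals and calls printed come from fits without this pairing unless the block is named. A fit with the replicate number as a block is given as an alternative where it changes a call. Gene models and promoters came from RefSeq's TAIR 10.1 by gene code, in which all 6 members and all 76 genes of the lists were found. Identities were computed with Biopython 1.88. All members are named with their values, and from each list up to 3 called genes in each direction, by size; genes most like a member are the 3 with the highest r. The members, lists and tests were chosen with earlier results of these data known. Alternatives changed the pseudocount, low-value filter, scaling, zeros, transcript choice, block and libraries.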

Additional observations from a re-analysis of the deposited data

How the results depend on the processing

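The number of members called for total expression between T3A1 and T1A3 was 1, and it became 2 with no filter on low values (LTP3 beside LTP5), with the replicate block and without replicate 2 of each cross, and 0 on the means of crosses, where no gene was called. For TAAA against AATA the number was 0, and it became 2 with the replicate block (1009 genes called beside 11) and without replicate 2 (2762 genes). For the T to A ratio of A. suecica against AlloF8 it was 4, and leaving out 1 library gave 0 to 5. Leaving out replicate 2, taking genes without a row as 0, and leaving single libraries out for the listed genes were added after the values were seen. Under the block, genes called between T3A1 and T1A3 became 5175 beside 2907. Between A. suecica and AlloF8, whose numbers are not shown to pair libraries, the block left 3 of 4 calls of the ratio, and 2 higher and 1 lower of the ABA and drought genes in place of 4 and 2. No called log2 difference of a member changed sign under the alternatives run. Unknown depth and values cut at 2 RPKM limit what can be said of LTP3, LTP4 and LTP6 in AlloF8 and the F1 crosses. A. suecica and AlloF8 had 2 libraries each, which is a further limit. The cause of these changes was not tested.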
